A study of Mus musculus with 30 samples.

Results

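The genes described here are the NMDA receptor subunits Grin1, Grin2a, Grin2b, Grin2c, Grin2d and Grin3a, 6 of the 17477 genes in the count table of a mouse hippocampus RNA-seq study. They were chosen by name, by matching the table's Ensembl identifiers to gene symbols, and the rule uses no measured value. The choice of this family was made with earlier results of these data known. All 6 had enough counts to be tested in both sexes, with 276 counts as the lowest value, for Grin2d in an SI male, and 62329 as the highest, for Grin1. The study asked how social isolation (SI) after weaning changes hippocampal gene expression. C57 BL/6J mice were placed after weaning either alone in a cage (SI) or with cage mates (group-housed, GH), and poly(A)-selected RNA of the adult hippocampus was sequenced, 1 library per mouse. Females numbered 8 under SI and 7 under GH, and males 7 under SI and 8 under GH. All mice were of the same inbred strain with no transgene or drug, and the groups were defined by housing and sex. The digit that closes the code in each sample title was also spread unevenly over the groups, and its meaning is not stated. The labels do not say which GH mice shared a cage, so cage could not enter the tests. The p-values measure the spread between mice and treat cage mates as independent. They may be too small if GH cage mates were alike.

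The NMDA receptor is a glutamate-gated ion channel built from 4 subunits, which opens only when glutamate binds while the membrane is depolarised and a co-agonist, glycine or D-serine, is bound. GluN1, encoded by Grin1, is obligatory and binds the co-agonist, while the GluN2 subunits (Grin2a to Grin2d) bind glutamate and set how long the channel stays open. GluN3A, encoded by Grin3a, forms receptors with low calcium permeability. In hippocampus the receptor is best known for its role in long-term potentiation and spatial memory, and forebrain receptors shift from GluN2B towards GluN2A after birth.

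On NCBIM37 all 6 genes are protein-coding and lie on the minus strand, Grin1 at chr2:25146701-25174707, Grin2a at chr16:9577803-9995014, Grin2b at chr6:135679844-136123529, Grin2c at chr11:115110483-115128557, Grin2d at chr7:53087253-53126298 and Grin3a at chr4:49674483-49858616. RefSeq annotates an antisense transcript that overlaps Grin1. The sources used here do not say whether the counting used strand, so reads from both strands of that stretch cannot be told apart. RefSeq promoter windows on GRCm38.p6, from 250 bases before to 50 bases after the gene start, were at hand for 3 members. They are shown because Grin1 and Grin2d correlated across mice (Spearman rho 0.71 in 30 mice, 0.51 in the 27 without SI males 25, 33 and 39), while Grin2c did not follow Grin1. Grin2d was at rank 1805 among all genes ordered by rho to Grin1, so this was no close likeness. Any part of the promoter sequence in that pattern was not tested. The windows are printed 5′ to 3′ on the gene's strand, with capitals marking GGGCGG, the GC box, searched on both strands with overlapping matches counted. They lie at chr2:25319138-25319437 for Grin1, chr11:115267194-115267493 for Grin2c and chr7:45866632-45866931 for Grin2d.
Grin1: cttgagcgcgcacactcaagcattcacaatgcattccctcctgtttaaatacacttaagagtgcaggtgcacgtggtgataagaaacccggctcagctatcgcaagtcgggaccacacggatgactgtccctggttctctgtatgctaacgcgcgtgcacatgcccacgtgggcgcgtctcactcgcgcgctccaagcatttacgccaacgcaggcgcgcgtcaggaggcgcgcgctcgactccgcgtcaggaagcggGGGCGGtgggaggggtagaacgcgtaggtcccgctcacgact
Grin2c: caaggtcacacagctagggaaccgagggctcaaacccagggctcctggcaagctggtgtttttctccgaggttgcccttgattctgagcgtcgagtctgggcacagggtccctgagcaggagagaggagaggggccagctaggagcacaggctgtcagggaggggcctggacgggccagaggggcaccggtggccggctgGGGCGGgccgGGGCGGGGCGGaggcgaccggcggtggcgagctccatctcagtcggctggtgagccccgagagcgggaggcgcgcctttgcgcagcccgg
Grin2d: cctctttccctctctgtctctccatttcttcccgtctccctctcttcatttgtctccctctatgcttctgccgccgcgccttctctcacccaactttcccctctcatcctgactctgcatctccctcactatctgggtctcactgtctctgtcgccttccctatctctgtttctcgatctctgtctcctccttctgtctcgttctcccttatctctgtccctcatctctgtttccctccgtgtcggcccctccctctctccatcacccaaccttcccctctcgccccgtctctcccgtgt
The Grin1 window held 1 match, the Grin2c window 3 and the Grin2d window 0. Of 32851 RefSeq windows of the same length, 35.7% held at least 1 match and 10.7% held at least 3. GC content was 60.7% in the Grin1 window, 70.0% in that of Grin2c and 56.0% in that of Grin2d, against a median of 52.7% over all windows.

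Total counts per library were from 18809307 to 100844898, and marker lists of CA1, CA3 and dentate gyrus had counts in every library. SI males 25, 33 and 39 stood apart from the rest. Their excess of short over long transcripts, the median deviation from the mean of all mice in the shortest 20% of transcripts less that in the longest 20%, was 1.06 to 1.38 on the log2 scale, against -0.48 to 0.35 in the other 27 libraries, and they had 18809307 to 25609585 counts. Male values that these 3 mice moved by over 1.5 times are also given without them. In whole tissue, fewer cells of a type and less RNA per cell cannot be told apart.

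Grin1 was the most abundant subunit mRNA in every mouse, at a mean of 99.1 CPM (counts scaled to library size, with TMM) per kb of its longest annotated transcript. On that scale it was followed by Grin2b (47.5), Grin2a (40.0), Grin2c (14.3), Grin2d (4.56) and Grin3a (4.21), each a mean over 30 mice. Grin1 was above Grin2b, Grin2a above Grin2c and Grin2c above Grin2d in 30 of 30 mice, so these steps were larger than the spread between mice. Grin2b was above Grin2a in 28 of 30 mice and Grin2d above Grin3a in 22 of 30, so the order of the last pair lay within the spread. Per kb of coding sequence, Grin3a (9.26) was above Grin2d (6.23) in 29 of 30 mice, and Grin2b (79.9) above Grin2a (43.8) in 30 of 30. The rank of Grin3a against Grin2d therefore depended on the length used. All lengths were those of GENCODE vM1 and the same for every mouse, so agreement between mice does not test them. The order of the subunits and their shares hold for these lengths only. Among the GluN2 subunits, per kb of transcript, Grin2b made up a median of 42.3% in GH females, 42.0% in SI females, 43.6% in GH males and 48.1% in SI males. Grin2a made up 38.8%, 39.8%, 36.6% and 32.3% in the same order, and Grin2d the least, at 3.66% to 4.53%.

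**Figure D1:**
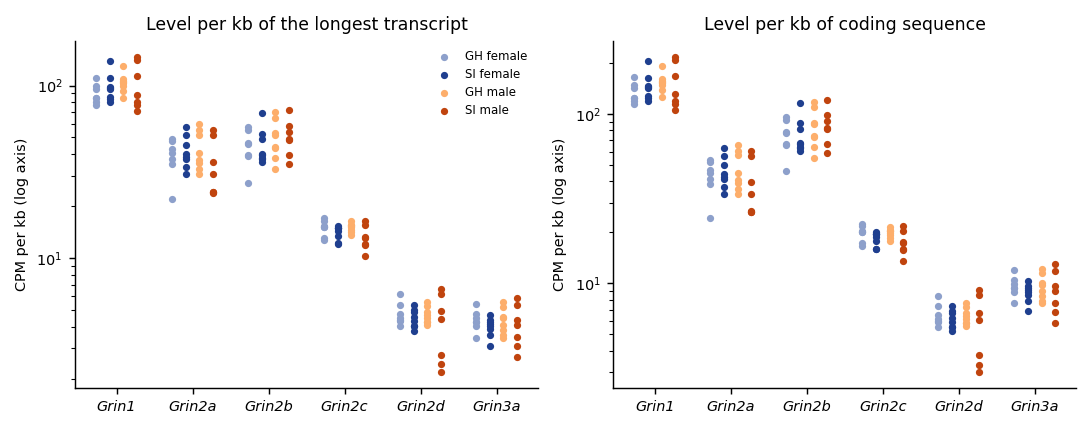
CPM per kb of the longest transcript (left) and of coding sequence (right) on a log axis for each subunit, 1 point per mouse, coloured by group. Grin1 lies above the other subunits in every mouse, and Grin2d and Grin3a change places between the panels.

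In females, none of the 6 subunits was called as a DEG between SI and GH mice, where 3.89% of the 16026 genes tested were called (edgeR's quasi-likelihood test, Benjamini-Hochberg adjusted p under 0.05). In males, 0 of 6 were called, against 0% of 15833 genes. The subunit with the smallest p in females was Grin3a, and in males Grin1. At an unadjusted p under 0.05, 1 of 6 passed in females (background 20.2%) and 1 of 6 in males (background 13%), a share near that of all genes in both sexes. DESeq2 called 1 of 6 in females, Grin3a, where it called 7.7% of all genes, and 0 of 6 in males, where it called 0.152%.

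**Figure D2:**
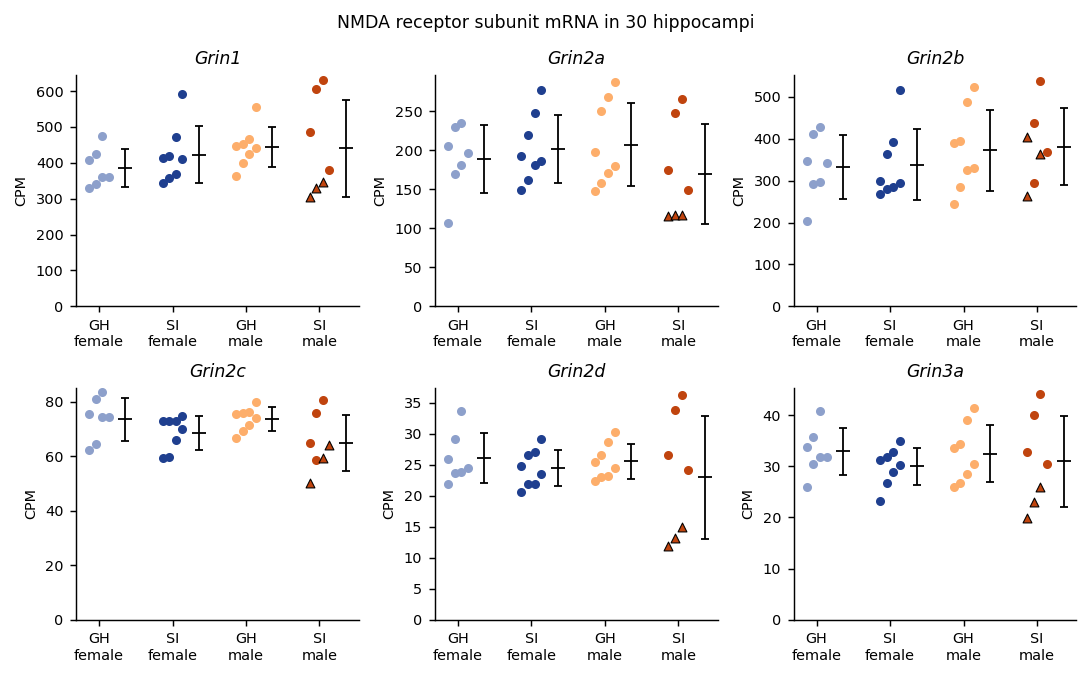
CPM of each subunit by group, 1 point per mouse, with the mean and SD beside the points and SI males 25, 33 and 39 as triangles. The groups overlap for every subunit, and the triangles are the lowest SI males for Grin1, Grin2a, Grin2d and Grin3a.

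Grin1 had 330 CPM as the lowest, 360 as the median and 475 as the highest value in GH females, and 345, 413 and 592 in SI females. All but 1 SI female lay within the GH range. Log2FC was 0.09 ± 0.0498 (SE), with a 95% interval from -0.02 to 0.19 (edgeR, adjusted p = 0.360). In GH males the values were 362, 445 and 557 CPM, and in SI males 306, 379 and 630. SI males spread to both sides of the GH males, with 2 above the highest and 3 below the lowest of them. The 3 below were males 25, 33 and 39, at 306, 345 and 331 CPM, while the other 4 SI males had 379 to 630. The model gave a Log2FC of 0.22 ± 0.0997 in males (edgeR adjusted p = 0.375), while the group means were close, at 444 ± 56.3 CPM (SD, n = 8) in GH males and 440 ± 134 (SD, n = 7) in SI males. Without surrogate variables the Log2FC was -0.01 (adjusted p = 0.968). Grin1 passed the threshold in males once, without SI male 27 (adjusted p = 0.0360), where 15.3% of all genes were called.

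Among the glutamate-binding subunits, Grin2a, which carries the faster-closing GluN2A, had 107 CPM as the lowest, 196 as the median and 235 as the highest value in GH females, against 149, 190 and 276 in SI females. The ranges overlapped, with 2 SI females above the highest GH female (Log2FC 0.15 ± 0.0832, edgeR adjusted p = 0.336). In GH males Grin2a had 147, 188 and 288 CPM, and in SI males 115, 149 and 265. SI males 25, 33 and 39 lay together at 115 to 117 CPM, below every GH male, while the other 4 lay from 149 to 265, within the GH range. Log2FC in males was -0.08 ± 0.137 (edgeR adjusted p = 0.828) and turned to 0.10 ± 0.116 without these 3 mice (adjusted p = 0.804).

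Grin2b, which carries the slower-closing GluN2B, had 205, 342 and 428 CPM in GH females and 269, 297 and 517 in SI females. Of the SI females, 1 lay above the highest GH female and 0 below the lowest (Log2FC 0.06 ± 0.110, edgeR adjusted p = 0.827). In males Grin2b had 244, 359 and 523 CPM under GH and 262, 368 and 537 under SI. SI males 25, 33 and 39, at 403, 363 and 262 CPM, all lay within the GH range, unlike for Grin2a. Log2FC in males was 0.09 ± 0.174, with a 95% interval from -0.27 to 0.46, the widest of the 6 subunits (edgeR adjusted p = 0.850). Without these 3 mice it was 0.23 ± 0.166 (edgeR adjusted p = 0.744).

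Grin2c, which is known from cerebellar granule cells and in forebrain from astrocytes and some interneurons, varied least between mice, 1.41-fold over all females and 1.60-fold over all males. It had 62.2, 74.4 and 83.4 CPM in GH females and 59.2, 71.4 and 74.7 in SI females, with 2 SI females below every GH female (Log2FC -0.10 ± 0.0556, edgeR adjusted p = 0.319). In males it had 66.4, 74.8 and 79.9 CPM under GH and 50.3, 64.2 and 80.7 under SI. Of the 7 SI males, 5 lay below the lowest GH male and 1 above the highest. Log2FC was -0.11 ± 0.0808 (edgeR adjusted p = 0.545), and -0.15 ± 0.0625 without males 25, 33 and 39 (edgeR adjusted p = 0.742). Markers of astrocytes were lower in SI females, while Grin2c itself was not called. Of the 8 on the list, 7 had a lower level at an unadjusted p under 0.05 (background 11%) and 4 were called (background 2.93% called lower). The list summed to 4405 to 6105 CPM under GH and 3719 to 5161 under SI. In males 2 of 8 were lower at an unadjusted p under 0.05 (background 7.38%), with sums of 4133 to 5622 CPM under GH and 2843 to 4957 under SI. The 5 cerebellar granule cell markers summed to at most 25.4 CPM, in GH female 48, and Gabra6 was at 0 in at least 1 library. Of the 4 tested, 2 were lower in SI females at an unadjusted p under 0.05 (background 11%). In males 1 was higher (background 5.63%), and 0 were called in either sex. Of 8 interneuron markers, 2 were higher in SI females at an unadjusted p under 0.05 (background 9.29%) and 1 was called. In males 1 of 8 was higher (background 5.63%) and 0 were called. The part of astrocyte, interneuron or cerebellar RNA in the Grin2c values was not tested.

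Grin2d, known in hippocampus mainly from interneurons, had 21.9, 24.4 and 33.6 CPM in GH females and 20.7, 24.2 and 29.2 in SI females, with 1 SI female below the GH range (Log2FC -0.10 ± 0.0719, edgeR adjusted p = 0.496). In males it had 22.3, 24.99 and 30.3 CPM under GH and 11.9, 24.2 and 36.2 under SI. This was the widest spread of the 6 subunits, 3.04-fold over the 15 males. SI males 25, 33 and 39 had 11.9, 13.1 and 14.9 CPM, while the other 4 SI males had 24.2 to 36.2. The 8 interneuron markers summed to 716 to 866 CPM in GH males and 748 to 1014 in SI males, with 1014, 1011 and 939 in the same 3 males, and the part of interneuron RNA in the Grin2d values was not tested. Log2FC of Grin2d in males was 0.15 ± 0.0962 (edgeR adjusted p = 0.493), and -0.15 ± 0.213 without surrogate variables (adjusted p = 0.620), so its direction over all males depended on the model. Without males 25, 33 and 39 it was 0.18 ± 0.120 with and 0.24 ± 0.111 without surrogate variables (edgeR adjusted p = 0.742 and 0.994).

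Grin3a, the subunit of receptors with low calcium permeability, had 25.9, 31.9 and 40.9 CPM in GH females and 23.2, 30.8 and 34.9 in SI females. Only 1 SI female lay below the GH range. Log2FC was -0.16 ± 0.0509, with a 95% interval from -0.27 to -0.05 (edgeR adjusted p = 0.0867), and it missed the threshold. With DESeq2 the adjusted p was 0.0434, and with edgeR without SI female 41 it was 0.0211. Other fits gave higher values, with an edgeR adjusted p of 0.641 without surrogate variables and 0.422 with all groups in 1 fit. With limma-voom it was 0.436. Leaving out 1 mouse at a time, the edgeR adjusted p was from 0.0211 to 0.208. In males Grin3a had 25.9, 32.0 and 41.5 CPM under GH and 19.9, 30.5 and 44.1 under SI, with 1 SI male above and 2 below the GH range. Log2FC in males was 0.10 ± 0.105 (edgeR adjusted p = 0.691) and turned to -0.07 ± 0.160 without surrogate variables (adjusted p = 0.775). Without SI males 25, 33 and 39 it was 0.23 ± 0.0868 (edgeR adjusted p = 0.742). The difference between the sexes, tested as an interaction in 1 fit of all 30 mice, was 0.31 ± 0.126 for Grin3a (edgeR adjusted p = 0.648). It was 0.066 without surrogate variables and 0.020 with the position digit, the digit that closes the code in each sample title, as a factor (edgeR adjusted p = 0.840 and 0.961). For the other 5 subunits it was from -0.11 to 0.20, with edgeR adjusted p from 0.842 to 0.999. None of the 6 was called in that test, where 0.0061% of 16391 genes were called, and only Grin3a had an unadjusted p under 0.05 (background 7.03%).

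**Figure D3:**
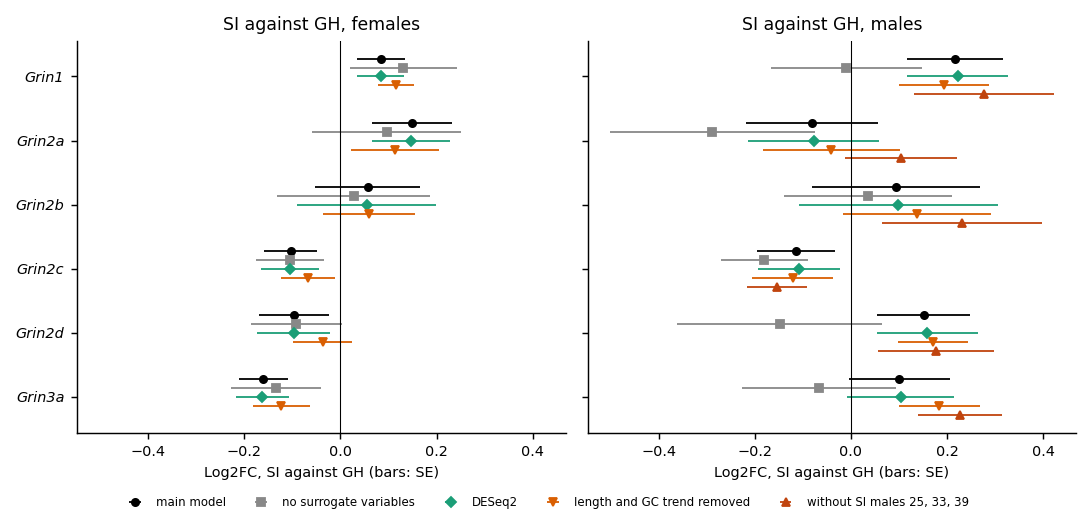
Log2FC of SI against GH for each subunit in females (left) and males (right), with SE as bars, under the main model and 4 alternatives. In males the points for Grin1, Grin2a, Grin2d and Grin3a lie on both sides of 0. In females the direction of each subunit is the same under the models drawn.

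The balance between subunits was compared within each library, where no library size is needed, with exact two-sided permutation tests that took every 1 of the 6435 ways to split the 15 animals of each sex, adjusted over 6 tests. These tests used no surrogate variables. In females Grin3a relative to Grin1 was lower under SI. The CPM ratio was 0.0749 as the lowest, 0.0874 as the median and 0.0941 as the highest value in GH females, and 0.0590, 0.0711 and 0.0850 in SI females. Of the 8 SI females, 5 lay below every GH female. Mean log2 ratios were -3.80 ± 0.165 (SD, n = 8) in SI females against -3.55 ± 0.113 (SD, n = 7) in GH females, a difference of -0.25 (exact permutation test, p = 0.00544, adjusted p = 0.0326). After the trend of counts with transcript length and GC content was removed from each library, the difference was -0.23 (exact permutation test, adjusted p = 0.0625) and no longer passed. Leaving out any of SI females 45, 49, 53, 63 and 68 or GH females 46, 47, 48, 54 and 71 also ended the call (exact permutation tests, adjusted p = 0.0513 each), with a difference of -0.21 to -0.26. In males the same ratio was 0.0631, 0.0718 and 0.0937 under GH and 0.0504, 0.0701 and 0.0867 under SI, a log2 difference of -0.05 (exact permutation test, adjusted p = 0.729). Male minus female, the difference in this ratio was 0.21 (100000 permutations of housing within sex, p = 0.196), so it was not shown to differ between the sexes.

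In males the mean of Grin2b relative to Grin2a was higher under SI, and after adjustment the difference missed the threshold. The ratio of CPM was 1.58 as the lowest, 1.82 as the median and 1.97 as the highest value in GH males, and 1.69, 2.24 and 3.49 in SI males. SI males 25, 33 and 39 had 3.49, 3.12 and 2.24, male 38 had 2.47 and male 7 had 2.02, all above every GH male, while males 8 and 27 had 1.77 and 1.69. Mean log2 ratios were 1.22 ± 0.397 (SD, n = 7) in SI males against 0.84 ± 0.103 (SD, n = 8) in GH males, a difference of 0.37 (exact permutation test, p = 0.0171, adjusted p = 0.0513). It passed when SI male 7, 8 or 27 was left out (exact permutation tests, lowest adjusted p = 0.0163). Without males 25, 33 and 39 it was 0.13 (exact permutation test, p = 0.224, adjusted p = 0.448). With the length and GC trend removed it was 0.48 (exact permutation test, adjusted p = 0.0625). In females the ratio was 1.64, 1.77 and 1.92 under GH and 1.47, 1.62 and 1.87 under SI, a log2 difference of -0.08 (exact permutation test, adjusted p = 0.372). The third ratio, Grin2c to Grin2a, differed by -0.21 in females and 0.13 in males on the log2 scale, within the spread between mice (exact permutation tests, adjusted p = 0.627 and 0.670).

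**Figure D4:**
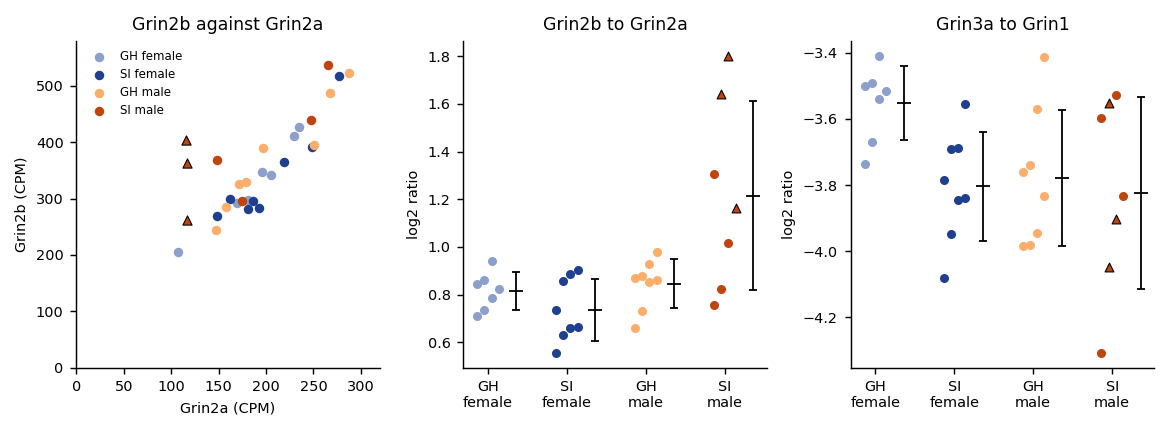
Grin2b against Grin2a in CPM (left) and the log2 ratios of Grin2b to Grin2a (middle) and Grin3a to Grin1 (right) by group, 1 point per mouse, with means and SDs and SI males 25, 33 and 39 as triangles. The triangles lie at 115 to 117 CPM of Grin2a with Grin2b at 262 to 403 CPM, above the only other mouse near that Grin2a level (a GH female with 107 and 205 CPM), and 5 of 8 SI females lie below all GH females in the right panel.

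Across the 30 mice, after centring each group on its mean, Grin2a and Grin2b rose and fell together, with a Spearman rho of 0.80, and 0.90 in the 27 mice without SI males 25, 33 and 39. Grin3a had a rho of 0.77 with Grin2a, 0.74 with Grin1 and 0.74 with Grin2d, and of 0.73, 0.61 and 0.44 in 27 mice. Such values were common, since Grin3a was only at rank 1103 among all genes ordered by rho to Grin2d. Grin2c ran against Grin1, Grin2a and Grin2b, at -0.23, -0.31 and -0.50, and at -0.59, -0.65 and -0.51 in 27 mice. These points share library preparation and depth, and the excess of short over long transcripts in a library moved with them. Its rho was -0.89 with Grin2a, -0.88 with Grin3a, -0.81 with Grin1, -0.71 with Grin2d, -0.64 with Grin2b and 0.21 with Grin2c. In 27 mice it was -0.92, -0.86, -0.69, -0.28, -0.83 and 0.67 in the same order, so that the value for Grin2d rested largely on the 3 SI males. The part of this library property in the subunit values was not tested, beyond the ratios given with the trend removed. Sums of the marker lists, centred likewise, also moved with the subunits in 30 mice. The largest rho values were 0.83 for dentate gyrus markers with Grin2a, and 0.81 for CA1 and -0.77 for oligodendrocyte markers with Grin1. CA3 markers had -0.75 with Grin3a. For Grin2c the largest was 0.45, with astrocyte markers. The part of cell mix was not tested. The genes most like each subunit in pattern, among 15770 genes tested in both sexes, were Dnm1 for Grin1 (rho 0.98), Cacna1e for Grin2a (0.98), Ntrk3 for Grin2b (0.95), Lhx2 for Grin2c (0.91), Sema4g for Grin2d (0.94) and Tro for Grin3a (0.93). Next came Sez6l2 and Sez6 for Grin1, Ralgapa1 and Tmem132b for Grin2a, Scn8a and Tnrc6b for Grin2b, Dact3 and Slc9a3r1 for Grin2c, Atn1 and Arhgap44 for Grin2d, and Ildr2 and Dnm3 for Grin3a.

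Around the receptor, 42 genes of known NMDA receptor biology were counted, from co-agonist supply to scaffolds, kinases, phosphatases and calcium signalling. The list was drawn up with earlier results of these data known. Its shares beside those of all genes are therefore no independent test in either sex. In females 5 of 42 were called, all lower under SI (background 2.93% called lower). They were Phgdh, an enzyme of the serine synthesis pathway, Camk2a, the alpha subunit of the calcium/calmodulin-dependent kinase that binds GluN2B, the postsynaptic scaffolds Dlg4 (PSD-95) and Dlg2 (PSD-93), and the adaptor Apba1 (Mint1). Camk2a had 4753 CPM as the lowest, 5979 as the median and 6951 as the highest value in GH females, and 4298, 4806 and 5725 in SI females (Log2FC -0.24 ± 0.0523, edgeR adjusted p = 0.0197). Dlg4 had 999, 1112 and 1294 CPM under GH and 893, 963 and 1049 under SI (Log2FC -0.18 ± 0.0417, edgeR adjusted p = 0.0242). All 8 SI females lay below the GH median for both genes, and the ranges overlapped at the lower end of GH. Apba1 fell by 0.24, Phgdh by 0.21 and Dlg2 by 0.19 on the log2 scale (edgeR adjusted p = 0.0214, 0.00728 and 0.0375). None of the subunits was called in females, but Grin3a had a Log2FC of -0.16 (edgeR adjusted p = 0.0867), close to those of Dlg4 and Dlg2. Partner genes and subunits were not tested against each other.

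By role, 3 of 10 scaffold and transport genes, 1 of 10 kinases and 1 of 6 co-agonist genes were called in females (background 3.89%). The counts were 0 of 4 phosphatases, 0 of 2 membrane partners, 0 of 9 calcium signalling genes and 0 of 1 for the remaining subunit Grin3b. Groups of 1 to 10 genes are too small to tell roles apart. At an unadjusted p under 0.05, 9 of 42 were higher (background 9.29%) and 8 lower (background 11%), 40.5% in all against 20.2% of all genes, and their median Log2FC was -0.01 against 0.01 for all genes tested. The count of 5 was 0 without surrogate variables and 0 with the position digit as a factor, in fits that called 0 of 16026 genes, and 11 with the length and GC trend removed, where 1520 genes were called. The folds of the 5 genes were not smaller in the fits without calls, with Camk2a at -0.30 and -0.31 and Dlg4 at -0.22 and -0.23. Leaving out 1 mouse, the count was 0 without SI female 68 (0.55% of all genes called), 1 without SI females 49, 63 or 73 (1.8%, 1.06% and 1.82%) or GH female 54 (1.4%), and 2 without GH female 48 (1.69%). Phgdh is known from astrocytes, whose markers were lower in SI females at the values given for Grin2c, and their part in the result was not tested.

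In males 0 of 41 tested partner genes were called, against 0% of all genes, with Grin3b not tested. At an unadjusted p under 0.05, 3 were higher (background 5.63%) and 7 lower (background 7.38%), 24.4% in all against 13% of all genes. The smallest p-values were those of Dlg2 (Log2FC -0.39 ± 0.102), Apba1 (-0.21 ± 0.0703) and the Ras exchange factor Rasgrf2 (-0.18 ± 0.0636), with edgeR adjusted p of 0.295, 0.312 and 0.318. Dlg2 had 266, 292 and 358 CPM in GH males and 84.7, 175 and 316 in SI males. Without SI males 25, 33 and 39 the Log2FC was -0.25 for Dlg2, -0.13 for Apba1 and -0.078 for Rasgrf2 (edgeR adjusted p = 0.742 each). Without SI male 38 alone it was -0.21 for Dlg2, -0.14 for Apba1 and -0.058 for Rasgrf2, and without SI male 27 it was -0.59, -0.30 and -0.28. Without SI male 27, 11 partner genes were called in males, in a fit that called 2413 genes in all. Of 9 thalamus markers, 7 were higher in SI males at an unadjusted p under 0.05 (background 5.63%). They summed to 108 to 137 CPM under GH and 106 to 261 under SI, and the part of thalamus RNA in the partner gene values was not tested.

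**Figure D5:**
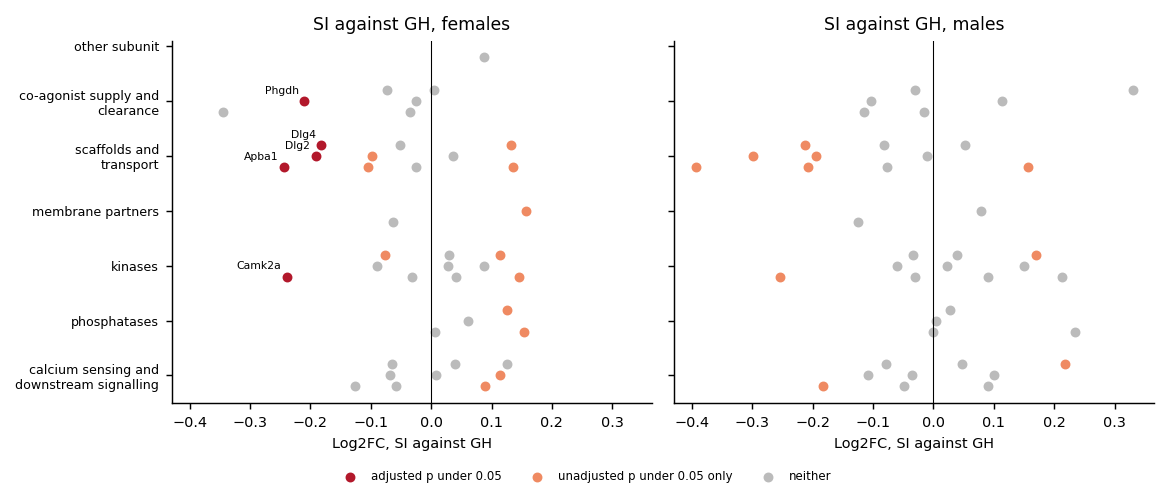
Log2FC of SI against GH for the NMDA receptor partner genes, 1 point per gene, by role, in females (left) and males (right). The 5 named genes in females lie between -0.24 and -0.18, and no gene in males has an adjusted p under 0.05.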

How the data were processed

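Per the labels and the study's methods, the authors extracted total RNA from frozen hippocampus, sequenced poly(A)-selected libraries, trimmed reads with Trimmomatic 0.39, ran Salmon 1.8.0 and deposited a table of raw counts, in whole numbers, with 1 column for each mouse. The submitters' processing notes name GRCm39. The table holds 17477 genes with at least 100 counts each, and 0 columns had no sample.

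From these counts, low genes were removed with filterByExpr in each sex (at least 10 counts, total of 15), scaled by TMM and tested with edgeR 4.0.16 (quasi-likelihood test, R 4.3.3), with surrogate variables from svaseq of sva 3.50.0 (3 in females, 2 in males, 4 in the fit of all mice, 20 permutations, seed 1) and Benjamini-Hochberg adjustment over all genes tested at 0.05. Log2 CPM used a prior count of 2. Positions, lengths and GC content are from GENCODE vM1 on NCBIM37. The lowest chi-square between 2 mice of a group was 9.29 per degree of freedom, above sampling noise, so precision is set by the spread between mice. The steps were tested on simulated data.

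Alternatives were DESeq2 1.42.0, its size factors, no surrogate variables, no filter, the position digit as a factor, limma-voom with quality weights (limma 3.58.1), a lowess correction for transcript length and GC content (span 0.3), all groups in 1 fit, a prior count of 0.5 for ratios, and leaving out each mouse or SI males 25, 33 and 39. The male against female test of ratios and the fit without those males and without surrogate variables were added after seeing the data. No GH female has the position digit 3 and no SI male the digit 4, so it is partly confounded with housing. The members, partner genes and marker lists were chosen with earlier results of these data known. Partner genes named are those with an adjusted p under 0.05, or the 3 with the smallest p where there were none.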

Additional observations from a re-analysis of the deposited data

Results flagged for a closer look

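In a test without surrogate variables, the difference in the Grin2b to Grin2a ratio between SI and GH mice itself differed between the sexes. SI minus GH was 0.37 in males and -0.08 in females on the log2 scale, so that the male value less the female value was 0.449 (100000 permutations of housing within each sex, two-sided p = 0.00493, adjusted p over 3 ratios = 0.0148). In males 5 of 7 SI mice lay above every GH male, and in females 4 of 8 SI mice lay below every GH female. Without SI males 25, 33 and 39 the value was 0.209 (permutation test, p = 0.0701, adjusted p = 0.210). This test was chosen after the ratios had been seen. In the edgeR interaction fit, which had surrogate variables, the value was 0.20 for Grin2b and -0.0069 for Grin2a (adjusted p = 0.885 and 0.999). Of 36 groups of values examined for a single mouse far from the others, 0 were singled out.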

How the results depend on the processing

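Leaving out 1 mouse at a time, the number of subunits called was 0 to 1 in females, 0 to 1 in males and 0 to 0 in the interaction, and the number of partner genes called 0 to 7 in females and 0 to 11 in males. Of the ratio tests, 0 to 2 passed. By ratio the range was -0.10 to -0.053 (females) and 0.27 to 0.45 (males) for Grin2b to Grin2a, -0.29 to -0.21 and -0.095 to 0.035 for Grin3a to Grin1, and -0.30 to -0.045 and 0.056 to 0.28 for Grin2c to Grin2a. Of single subunits in females, Grin1 ranged from 0.048 to 0.15, Grin2a from 0.038 to 0.20, Grin2b from -0.039 to 0.13, Grin2c from -0.14 to -0.062, Grin2d from -0.15 to -0.0095 and Grin3a from -0.18 to -0.11, with the values nearest 0 for Grin2a, Grin2c, Grin2d and Grin3a found without GH female 46. In males Grin1 ranged from 0.097 to 0.27, Grin2c from -0.18 to -0.042, Grin2d from 0.026 to 0.23, Grin2a from -0.23 to 0.060, Grin2b from -0.055 to 0.24 and Grin3a from -0.0089 to 0.19. In the interaction Grin1 ranged from -0.13 to 0.16, Grin2a from -0.25 to 0.049, Grin2b from -0.12 to 0.38, Grin2c from -0.17 to 0.017, Grin2d from 0.054 to 0.23 and Grin3a from 0.14 to 0.35. DESeq2 called 1 subunit in females. The number of partner genes called in females was 0 without surrogate variables, 11 with the length and GC trend removed, 0 with the position digit and 1 with all groups in 1 fit, where 0, 1520, 0 and 434 genes were called in all. With the trend removed, 0 ratios passed, Grin3a to Grin1 being -0.23 in females and 0.12 in males. Grin2c to Grin2a in males was -0.10 without males 25, 33 and 39. Other values that changed sign were, in females, Grin2b at -0.083 with limma-voom. In males, these were Grin1 (-0.0098), Grin2d (-0.15) and Grin3a (-0.067) without surrogate variables, Grin1 (-0.11), Grin2b (-0.11), Grin2d (-0.18) and Grin3a (-0.13) with the position digit, and Grin2a at 0.10 without males 25, 33 and 39, 0.019 without them or surrogate variables, and 0.15 with all groups in 1 fit. In the interaction, they were Grin1 (-0.14) and Grin2d (-0.058) without surrogate variables, Grin1 at -0.015 with the trend removed, Grin1 (-0.22), Grin2b (-0.092) and Grin2d (-0.074) with the position digit, Grin1 (-0.055) and Grin2c (0.0033) with limma-voom, Grin1 (-0.011) without the 3 males, and Grin2a at 0.0070 with DESeq2 and 0.0091 with its size factors. The cause of these changes was not tested. No paired analysis was possible because the labels give each mouse its own number, and the groups share none.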
